A study of Mus musculus with 6 samples.

Results

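The late pair of this study set 1 library of mouse skin treated with C-phycocyanin (C-PC) during the late stage of wound healing against 1 untreated library of the same stage. These are 2 of the 6 RNA sequencing libraries in the series, which pairs 1 treated with 1 untreated library in each of 3 stages (early, middle and late). C-PC, a blue pigment protein with which the cyanobacterium Spirulina harvests light, was the only agent named, and the comparison asks which transcripts differ between treated and untreated tissue once repair is under way. The labels give the tissue, the treatment and the stage. They name no strain, sex, age, wound model, dose or day after wounding, and nothing says whether a library comes from 1 animal or several. With 1 library per group, no test across samples can be made and no p-value is given, and the treatment, the animal and the piece of tissue taken cannot be told apart.

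Hair-bearing skin holds several tissues whose transcripts can be read apart. Basal keratinocytes renew the epidermis and the outer root sheath, and the cells above them build the cornified layer. In a growing hair follicle, dividing matrix cells around the dermal papilla give rise to the inner root sheath, which moulds the hair, and to the hair shaft, whose keratin filaments are embedded in keratin-associated proteins and coloured by pigment from melanocytes. Beneath the dermis lie fat and, in mice, a sheet of skeletal muscle, the panniculus carnosus.

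The late C-PC library held 17033889 reads on genes and the late control 16187258. The deposited values are read counts multiplied by 1 factor per library, 0.806 for late C-PC and 1.24 for the late control, called scaled reads here. These factors leave the 2 libraries with unequal totals, and log2 ratios lie about 0.55 below those from equal totals. Every log2 ratio is that of C-PC over control after adding 2 to each value. Where a log2 ratio is followed by a range, the range is its exact 95% conditional binomial interval, taken without that addition, and it accounts for counting alone. A fold against a library without any read is set against 3 reads there and written as at least. The library kit does not mark strand, so reads of overlapping genes cannot be fully told apart, which touches many of the genes named, among them Krtap15, Pmel, Dsp, Shh, Padi2, Dbp, Cox6a2, Atp2a1, Ckm, Tnnt3, Gapdh, Ereg and Tgfa. Levels of different genes are compared per kilobase of gene length. Levels across stages are in CPM, the share of a library's reads on genes scaled as usual to a common total.

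Both late libraries carry the label skin, and their defining transcripts differ. Of 18 basal keratinocyte markers, Krt5 and Krt15 had 20231 and 7014 scaled reads with C-PC, against 0 reads each in the library labelled late control, and Krt14 had 6833 with C-PC against 2.50. The whole basal list summed to 8192 CPM with C-PC against 576 CPM in the late control. In the early libraries, too, Krt14 was at or near 0, at 1.90 CPM with C-PC and 0 CPM in the control. Skeletal muscle genes took 0.413% of the reads with C-PC and 20.5% in the late control. Genes of hair follicle structure (inner root sheath, hair keratins and keratin-associated proteins) took 8.28% with C-PC and 0.00781% in the late control. Of 19 fibroblast genes, which mark dermis, 7 were higher and 1 lower, where 27.3% and 23.4% of all genes compared were. The list summed to 15759 CPM with C-PC and 3647 CPM in the late control. Within it Dcn and Pdgfra were within 2-fold, with Dcn at 10874 with C-PC against 13469.6 scaled reads and Pdgfra at 1021 against 1371. Summed over its genes, fast muscle took 124977 CPM of the library labelled middle C-PC and 122182 CPM of the one labelled late control, against 1361 to 8392 CPM of the other 4 libraries, so these 2 libraries with different labels stood apart together. Whether any library labels were exchanged was not tested, and every ratio here takes the labels as given. In bulk tissue, fewer cells of a type and less RNA per cell cannot be told apart. Among sex-linked genes, the Y-linked Eif2s3y had 1189 against 706 scaled reads, while Xist, which silences an X chromosome in females, had 2.40 against 1.26.

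**Figure D1:**
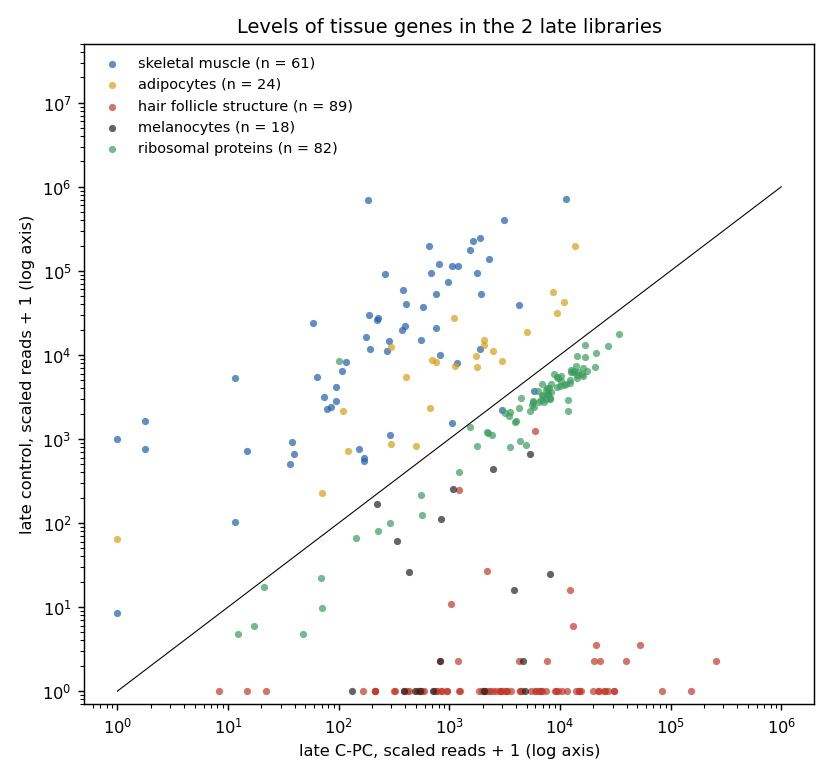
Scaled reads (plus 1, log axes) of the genes of 5 groups, marked by colour, in the late C-PC library (x axis) and the late control (y axis), with 1 point per gene and a line of equality. Most hair follicle genes lie along the bottom, with up to 255905 scaled reads with C-PC and at or near 0 in the control, most muscle genes and the fat genes lie above the line, and most ribosomal protein genes lie in a narrow band just below it.

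A gene was compared when either late library held at least 10 reads of it, and a gene was counted as higher or lower when its scaled value differed by at least 2-fold. Of 17073 genes compared, 27.3% were higher and 23.4% lower with C-PC, and the median log2 ratio over all of them was 0.15. A further 49.3% lay within 2-fold. The distribution had a longer upper end, since 970 genes were at least 16-fold higher and 494 at least 16-fold lower. With 100 or more reads as the limit, 350 genes were read with C-PC and had 0 reads in the control, against 10 the other way round. The 10 most abundant genes took 7.35% of the reads with C-PC and 19.9% in the late control, and 21563 genes had at least 1 read with C-PC against 19805 in the late control. Scaling by total reads in place of the authors' scaling moves the median of all genes up by 0.54 on the log2 scale, to 0.69, and the share of higher genes among those past 2-fold is then 72.1%, against 53.8% with the authors' scaling. The 10 most abundant genes with C-PC include Tchh, Krt71, Krt25 and Krt27 of the inner root sheath and the collagen genes Col3a1, Col1a1 and Col1a2, and those of the late control include the muscle genes Acta1, Myh4, Atp2a1, Ckm, Tnnt3 and Pvalb and the fat gene Scd1.

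**Figure D2:**
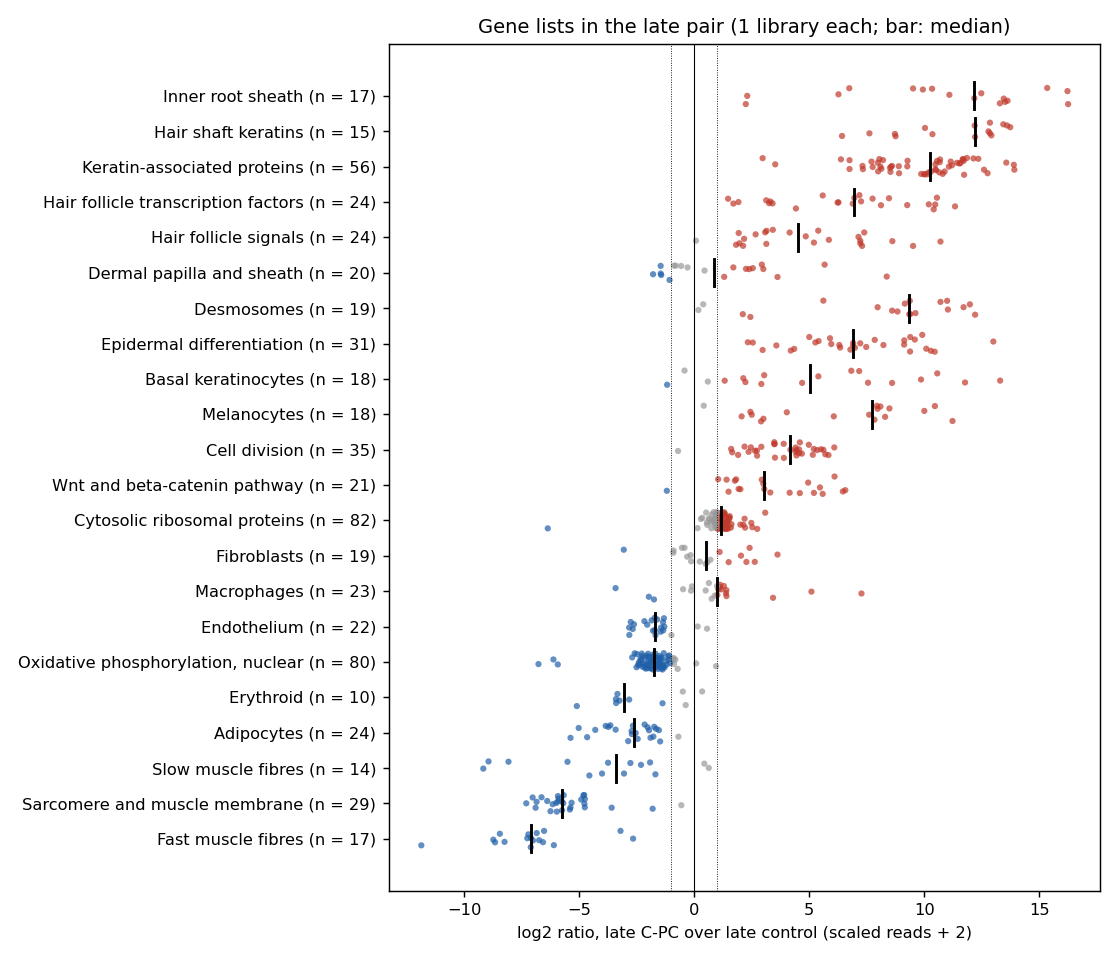
Log2 ratio of late C-PC over late control for each compared member of 22 gene lists (1 point per gene, 1 library per group); black bars are list medians, red and blue mark members at least 2-fold higher and lower, and grey marks the rest. Medians run from 12.21 for hair shaft keratins down to -7.10 for fast muscle fibres, with fibroblast genes close to 0. Where many members had 0 control reads the median depends on the addition of 2, and that of hair shaft keratins was 11.34 with 3 reads in place of 0.

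Inner root sheath genes summed to 48606 CPM with C-PC at the late stage, against 76.9 CPM without it. All 17 genes of this list were higher with C-PC, where 27.3% of all genes were, and 10 of them had 0 control reads. The median log2 ratio was 12.18, or 10.66 with 3 reads set in place of 0. Per kilobase, Krt71, a type II keratin of the sheath, led with 70489.9 scaled reads with C-PC and 0 in the control, followed by trichohyalin (Tchh), which hardens the sheath, at 43947 against 0.216. The type I sheath keratins Krt25 and Krt27 stood at 42024 and 34024 per kilobase with C-PC, against 0 and 1.61 in the control. The bounds for Krt72, Krt28 and Krt26 were at least 6058-fold, 5393-fold and 3077-fold, all higher with C-PC. The sheath keratins differed widely among themselves, and Krt74 was the lowest of those named, at 129 scaled reads per kilobase with C-PC and 0 in the control. Enzymes that modify trichohyalin were higher too: Padi3, a peptidylarginine deiminase, had 12377 against 14.9 scaled reads and the transglutaminase Tgm3 had 4234 against 1.26. Ctsc and Cst6, a protease and a protease inhibitor that many tissues express, had the smallest ratios of the list, log2 ratios of 2.24 (2.15 to 2.34) and 2.30 (2.10 to 2.53).

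The hair shaft genes formed a second block. All 15 hair keratin genes compared were higher with C-PC, and 12 of them had 0 control reads. Krt35, an early keratin of the cortex, had 14864 scaled reads with C-PC and 0 in the control (at least 3994-fold). Krt32 and Krt82, keratins of the hair cuticle, had 2625 scaled reads and 2096 with C-PC and 0 in the control. Per kilobase, Krt33a stood at 13292 scaled reads with C-PC and 0 in the control, and Krt84 at 148 and 0. Krt36 alone had more than 5 control reads, with 1025 against 9.94 scaled reads (log2 ratio 6.43, 5.71 to 7.91). Near-identical type II members such as Krt81, Krt83, Krt86 and Krt87 can share reads, so their separate values are uncertain.

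Keratin-associated proteins, the matrix between hair keratin filaments, were counted next. Of 57 such genes in the late table, 56 reached 10 reads and all of those were higher with C-PC. In the late control the 57 genes held 9 reads together, and 51 were at 0. Families rich in glycine and tyrosine (16 genes) held 37.5% of the family's C-PC reads, and the other families (41 genes) held 62.5%. Among the highest values were those of Krtap7-1 with 39686, Krtap15 with 31057 and Krtap8-1 with 30552 scaled reads with C-PC, against 1.26, 0 and 0 in the control. The lowest was Krtap5-3, with 7.24 scaled reads against 0. Members of these families are short and alike, so reads may be split among them.

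These genes lie in clusters, so the difference can be read along the genome. On GRCm38, the type I keratin span of chromosome 11 (99232761 to 100269871) holds 62 compared coding genes, of which 61 were higher and 1, Krt222, was lower with C-PC. The type II span of chromosome 15 (101347444 to 102032027) holds 25, of which 24 were higher, and Krt7, a keratin of simple epithelia, was not. Keratin-associated genes on chromosome 16 held 66.1% of that family's C-PC reads, and those on chromosome 11 held 32.2%. Over all windows of 1 Mb with at least 8 compared coding genes, the most higher genes (50 of 52) stood in the window of chromosome 11 from 99000001. The next was the window of chromosome 3 from 92000001, with the small proline-rich and late cornified envelope genes, at 30 of 31. Lower genes were most numerous on chromosome 17 from 25000001, with 15 of 39 lower and 8 higher. On chromosome 6 from 48000001, a window that holds Gimap genes, 13 of 20 were lower and 0 higher, with a median log2 ratio of -1.61.

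Promoter windows of the follicle genes were read from RefSeq (build GRCm38.p6) as 250 bases before to 50 after the start of transcription, and 24 of 32 sheath and hair keratin genes and 50 of 57 keratin-associated genes had one. The TATA box letters TATAAA, searched on both strands, stood in 62.5% of the sheath and hair keratin windows and in 82.0% of the keratin-associated windows, against 14.2% of all 27025 windows. These windows also held fewer G and C letters, with medians of 45.8% and 41.3% against 52.7% of all windows. The part of letter content in the TATAAA shares was not tested. The 250 bases before the start are shown for a leading sheath keratin and a leading keratin-associated gene, with the TATA letters in capitals, since in both the match begins close to the start, 40 bases before it in Krt71 and 29 in Krtap8-1. A match describes letters and shows no binding. The windows are chr15:101743098-101743347 (minus strand) for Krt71 and chr16:89487953-89488202 (minus strand) for Krtap8-1.
Krt71: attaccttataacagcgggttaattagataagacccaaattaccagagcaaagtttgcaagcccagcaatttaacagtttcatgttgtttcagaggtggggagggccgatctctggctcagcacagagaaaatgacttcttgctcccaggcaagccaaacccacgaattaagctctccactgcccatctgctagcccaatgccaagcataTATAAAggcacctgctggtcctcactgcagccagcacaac
Krtap8-1: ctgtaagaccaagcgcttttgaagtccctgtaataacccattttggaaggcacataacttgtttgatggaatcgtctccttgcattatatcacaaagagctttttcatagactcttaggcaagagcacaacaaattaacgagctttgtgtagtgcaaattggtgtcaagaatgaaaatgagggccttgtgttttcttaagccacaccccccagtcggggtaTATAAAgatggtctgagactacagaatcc

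Transcription factors of the follicle were higher together with the structural genes. All 24 compared members of that list were higher (median 6.93, or 6.44 with 3 reads in place of 0), and Foxi3 had too few reads. Dlx3, a homeobox factor of hair and epidermis, had 8456 against 1.26 scaled reads, a log2 ratio of 11.34 (10.26 to 18.04). Hoxc13, a homeobox regulator of hair keratin genes, had 3007 scaled reads against 0 (at least 808-fold). Foxn1, the factor lost in nude mice, had 2855 scaled reads against 0 (at least 767-fold). For Msx2 the difference was at least 732-fold, for Ovol1 at least 632-fold and for Sox21 at least 329-fold. These factors had 0 reads in the control apart from Dlx3, with 1 read, while others were read there too. Among those, Gata3, a factor of the inner root sheath, had a log2 ratio of 6.27 (5.76 to 7.07). Vdr, the vitamin D receptor needed for hair cycling, had a log2 ratio of 6.96 (6.51 to 7.62). Hr, the hairless corepressor, had a log2 ratio of 3.25 (3.14 to 3.38), and Cux1 1.92 (1.84 to 2.00).

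Signals of the hair matrix and their receptors were higher as well, with a median log2 ratio of 4.50 (4.24 with 3 reads in place of 0). Of 24 genes in this list, 23 were higher with C-PC. Shh, the hedgehog ligand of matrix cells, had 291 against 4.98 scaled reads, and its target Gli1 and receptor gene Ptch1 had 946 against 86.9 and 2931 against 768. Fgf5, which ends the growth phase of the hair cycle, had 1098 scaled reads against 4.98 (log2 ratio 7.30, 6.43 to 9.67). Wnt10b, a ligand of growing follicles, had 451 scaled reads against 23.6, and Wnt3 had 546 against 1.26. Liph, which makes a lipid needed for hair growth, had 783 scaled reads against 0, whereas the receptor gene of that lipid, Lpar6, had 763 against 174. Eda, the ectodysplasin ligand, was the member within 2-fold (log2 ratio 0.07, -0.25 to 0.41). Its receptor gene Edar had 59.6 scaled reads against 4.98.

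Beta-catenin targets and inhibitors were read as a separate list of the Wnt pathway, in which 20 of 21 genes were higher and 1 lower. The targets Axin2 and Lef1 had 760.1 against 222 and 1227 against 23.6 scaled reads. Among inhibitors, Nkd2 had a log2 ratio of 4.59 (4.28 to 4.98). Dkk2, at -1.19 (-1.56 to -0.87), was the single lower gene of the list, and with total-read scaling none was lower. Genes of the dermal papilla, the mesenchyme that instructs the matrix, were split. Of 20, 10 were higher and 5 lower (1 lower with total-read scaling), where 27.3% and 23.4% of all genes were. Corin, a serine protease of the papilla, had 659 against 0 scaled reads, and Rspo4, a Wnt enhancer, 290.2 against 3.74. Sox18, Bmp6 and Acan were among the lower ones, at log2 ratios of -1.46, -1.46 and -1.79, and Sox2 was below 10 reads in both libraries. Of the outer root sheath and stem cell list, 14 of 19 were higher, led by Krt17 and by Krt75, the companion layer keratin, with 19784 and 14508 scaled reads against 0 and 0. Lgr5 had a log2 ratio of 6.10 (5.35 to 7.72), while Cd34 and Lrig1, also expressed outside follicles, gave -0.16 and -0.91, and Nfatc1, which muscle also expresses, gave -2.47 (-2.67 to -2.30).

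Epidermal genes were higher from the basal layer outward. Among 18 basal genes 15 were higher and Dst was lower (log2 ratio -1.18, -1.24 to -1.13), and the integrin gene Itga6 gave -0.43 (-0.53 to -0.33). Krt5, the basal keratin, had 20231 against 0 scaled reads, whereas its partner Krt14 had 6833 against 2.50. Trp63, the factor that maintains stratified epithelium, had 4376 scaled reads with C-PC but still 167 in the control (log2 ratio 4.69, 4.46 to 4.96). All 31 compared differentiation genes were higher (median 6.91, or 5.70 with 3 reads in place of 0). Sprr1a, a small proline-rich cornified envelope protein, led with 16466 scaled reads against 0. Krt1 and Krt10, the partner keratins of the spinous layer, had 2811 scaled reads against 0 and 3825 against 59.6. Loricrin (Lor) and filaggrin (Flg), late proteins of the cornified layer, had 975 scaled reads against 1.26 and 355 against 0.

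Desmosomes are the junctions that link keratin filaments of neighbouring cells. Of 19 genes 17 were higher (median 9.35). The plaque protein desmoplakin (Dsp) had 44705 against 19.9 scaled reads. The cadherins Dsc1 and Dsc3 had 9509 and 8122 scaled reads against 0 and 0, and Dsg4, the desmoglein of the hair, had 3342 against 0. Plakoglobin (Jup), which other junctions share, had 12647 scaled reads against 2928 (log2 ratio 2.11, 2.05 to 2.17). Pkp2 and Pkp4, plakophilin-family genes with wide expression, were within 2-fold, at log2 ratios of 0.18 (-0.08 to 0.45) and 0.39 (0.26 to 0.51).

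Enzymes of cornification and of the lipid barrier differed between paralogs. Of the transglutaminases, Tgm1 had a log2 ratio of 7.64 (6.90 to 9.26) and Tgm6 9.01 (7.93 to 15.71), whereas Tgm2, the tissue form of vessels and stroma, gave -2.04 (-2.18 to -1.92). Of the deiminases, Padi1 had 1966 against 0 scaled reads and Padi2, the form of muscle and other tissues, had 80.6 against 4229 (log2 ratio -5.68, -6.01 to -5.43). Of 20 barrier lipid genes 16 were higher. Alox8, Abca12, the lipid transporter of lamellar granules, and Cers3, a ceramide synthase, had 1353, 1154 and 987 scaled reads with C-PC and 0 each in the control. Alox12b, a lipoxygenase of the epidermal barrier, had 21.7 scaled reads against 0. The ubiquitous lipid genes Asah1 and Abhd5 had 729.5 scaled reads against 639 and 1129 against 1107.

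Keratinocytes at a wound edge switch on another set, of which 9 of 18 genes were higher and 4 lower (3 lower with total-read scaling). Of all genes compared, 27.3% were higher and 23.4% lower. Krt6a and Krt16, keratins of activated epidermis that follicles also make, had 1994 and 386 scaled reads with C-PC against 0 and 0 in the control. S100a8 and S100a9, which activated keratinocytes and neutrophils both make, had 154 scaled reads against 1001 and 102 against 1852. Mmp13, a collagenase of wounds, had 39.5 scaled reads against 85.6.

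Pigment cell genes were higher, and 7 of them had 0 control reads. Of 18 melanocyte genes 17 were higher with C-PC (median 7.72, or 6.26 with 3 reads in place of 0). The melanin enzymes Dct, Tyrp1 and Tyr had 8062 against 23.6, 4808 against 0 and 2055 against 0 scaled reads. Pmel, the fibril protein of the pigment granule, had 4611 scaled reads against 1.26, and the granule transporter genes Oca2, Slc45a2 and Slc24a5 had 716, 545 and 491 with C-PC and 0 each in the control. Genes of the lineage with wider expression had smaller ratios, among them Mitf, its master regulator, at a log2 ratio of 2.06 (1.85 to 2.29) and Kit at 2.90 (2.61 to 3.25). Sox10, which Schwann cells also express, was within 2-fold (log2 ratio 0.41, 0.11 to 0.72).

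The M-box, TCATGTG, is a motif that Mitf is known to bind in pigment genes. On either strand it stood in 6 of the 13 melanocyte genes that had a window (46.2%), against 3.74% of all windows. The 250 bases before the start of Tyrp1 (chr4:80833963-80834212, plus strand) and Tyr (chr7:87493513-87493762, minus strand) are shown because both carry it within 50 bases of the start, with its letters in capitals.
Tyrp1: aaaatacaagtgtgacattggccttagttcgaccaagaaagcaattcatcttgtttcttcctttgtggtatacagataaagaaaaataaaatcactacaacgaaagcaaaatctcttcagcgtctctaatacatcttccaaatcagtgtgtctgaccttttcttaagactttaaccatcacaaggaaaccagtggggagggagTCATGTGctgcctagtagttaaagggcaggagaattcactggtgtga
Tyr: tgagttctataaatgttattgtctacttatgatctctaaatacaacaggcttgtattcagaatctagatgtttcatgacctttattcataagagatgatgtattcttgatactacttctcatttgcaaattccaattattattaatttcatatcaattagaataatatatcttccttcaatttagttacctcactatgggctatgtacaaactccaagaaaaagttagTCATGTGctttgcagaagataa

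Cell division genes were higher with C-PC in 34 of 35 cases (median 4.18). Kif11, a motor of the spindle, had 1148 against 14.9 scaled reads (log2 ratio 6.09, 5.46 to 7.22), and Mki67, which cycling cells express, had 4796 against 133 (5.15, 4.90 to 5.46). Among mitosis genes Cdc20 and Ccnb1 had log2 ratios of 5.34 and 5.51, and among genes of replication licensing Mcm3, Mcm7 and Mcm5 gave 2.46, 2.19 and 4.41. Aurka, a mitotic kinase, was the exception (log2 ratio -0.71, -0.94 to -0.48). Replication-dependent histone genes did not share the direction. Of 25 compared, 14 were lower and 5 higher, where 23.4% and 27.3% of all genes were. The linker histone gene Hist1h1c had 999.6 scaled reads against 3736. Most histone messages of this kind lack a poly(A) tail, and how RNA was selected for these libraries is not stated in the labels.

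The CHR letters TTTGAA and the CCAAT box are known features of promoters active late in the cell cycle. On either strand TTTGAA stood in 51.7% and CCAAT in 82.8% of 29 cell division windows, against 18.1% and 37.9% of all windows. In sheath and hair keratin windows TTTGAA was about as frequent, in 12 of 24, so it did not separate these lists. Cdc20 is shown (chr4:118437344-118437593, minus strand) with TTTGAA in capitals.
Cdc20: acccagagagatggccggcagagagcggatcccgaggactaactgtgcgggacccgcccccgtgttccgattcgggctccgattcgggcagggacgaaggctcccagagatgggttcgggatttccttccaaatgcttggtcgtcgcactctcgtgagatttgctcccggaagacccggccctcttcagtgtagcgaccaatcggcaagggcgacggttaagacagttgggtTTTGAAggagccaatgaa

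Cytosolic ribosomal protein genes were higher as a group, in a narrow band of ratios. Of 82 compared, 55 were at least 2-fold higher and 1 lower, with a median of 1.16, where the median of all genes was 0.15. The elongation factor gene Eef1a1 had a log2 ratio of 2.00 (1.98 to 2.03). The single lower member was Rpl3l, the striated muscle paralog of Rpl3, with 99.9 against 8457 scaled reads, whereas Rpl3 itself had 11877 against 2130.0. Many of these genes have processed pseudogenes, and 37.9% of 691 pseudogenes of that type were higher too, so some reads may be misplaced.

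Skeletal muscle made up the lower end of the comparison. All 17 fast fibre genes compared were lower with C-PC (median -7.10), where 23.4% of all genes were. The fast myosins differed in size of change. Myh4, the heavy chain of the fastest fibres (type IIb), had 185 against 700331 scaled reads. Myh1, of type IIx fibres, had 4288 scaled reads against 39697, a log2 ratio of -3.21 (-3.25 to -3.17). Myh2, of type IIa fibres, had 1875 scaled reads against 11878, a log2 ratio of -2.66 (-2.73 to -2.60). Per kilobase, the highest of the 3 was Myh1 with C-PC, at 675 scaled reads, and Myh4 in the control, at 116411. Tnnc2 was listed at 0 against 7.46 scaled reads, and it overlaps Ube2c, so its reads cannot be told apart from those of that gene.

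Slow fibre genes were lower in 12 of 14 cases. Myh7, the slow myosin, had 0.789 against 1614 scaled reads, and the slow light chain gene Myl3 had 0.789 against 754. Atp2a2 and Tpm3, which non-muscle cells also express, were the exceptions, at log2 ratios of 0.63 (0.57 to 0.69) and 0.43 (0.35 to 0.52). Of 29 sarcomere and muscle membrane genes 28 were lower. Nebulin (Neb), a giant protein of the thin filament, had 1764 scaled reads against 95147. Dystrophin (Dmd) was within 2-fold, with 1058 scaled reads against 1567. The list for developing muscle was mixed, with 12 of 19 lower and 4 higher. Myod1 and Pax7, the satellite cell factor, had 59.6 scaled reads against 552 and 8.04 against 99.3, whereas Myh8, the perinatal myosin, and Chrng, the fetal receptor subunit of the neuromuscular junction, had 297 against 55.8 and 21.7 against 0. Myh3, the embryonic myosin, gave 53.2 scaled reads and 53.4.

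Muscle promoters carried the E-box CAGCTG, a motif known to be bound by myogenic factors such as Myod1, in 20 of 44 windows (45.5%), against 16.1% of all windows. The motif reads the same on both strands, and it was 1 of 8 motifs searched in every set. The others, besides the TATA, M-box, CHR and CCAAT letters, were the CArG box and the MEF2 box, both known from muscle promoters, and the LEF/TCF letters CTTTGAT. The CArG box stood in 13.6% and the MEF2 box in 18.2% of the muscle windows, against 1.57% and 3.26% of all windows, and the MEF2 box can overlap the TATA letters. CTTTGAT stood in 0 of 24 sheath and hair keratin windows, against 3.72% of all windows. The E-box CAGCTG stands in capitals in the 250 bases before Myh4 (chr11:67237562-67237811, plus strand).
Myh4: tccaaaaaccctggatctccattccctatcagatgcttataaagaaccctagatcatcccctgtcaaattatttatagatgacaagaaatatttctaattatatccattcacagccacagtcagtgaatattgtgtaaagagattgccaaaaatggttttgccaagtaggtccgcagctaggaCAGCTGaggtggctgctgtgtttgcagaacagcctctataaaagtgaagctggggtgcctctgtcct

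Energy metabolism genes differed between muscle-enriched and other paralogs. Of 21 glycolysis genes 14 were lower and 2 higher (median -3.29). Pairs were formed from the lists with their values known. Eno3, the muscle enolase, had a log2 ratio of -7.22 and Eno1 -0.58. Pgam2, the muscle phosphoglycerate mutase, had a log2 ratio of -6.74 and Pgam1 1.11. Pfkm had a log2 ratio of -6.11 and Pfkp, the platelet-type phosphofructokinase, 0.40. In the 10 pairs so chosen the muscle-enriched member had the lower ratio. The difference (muscle-enriched minus other, log2 ratios) lay between -8.85 and -4.86, a range that describes the chosen pairs alone. The hexokinase genes Hk2 and Hk1, which were not paired, were closer, at log2 ratios of -2.52 and 0.01. Respiratory chain subunits are among the 10 pairs: Cox6a2, Cox7a1 and Cox8b had log2 ratios of -6.78, -6.13 and -5.94, against 0.08, -1.05 and -0.72 for Cox6a1, Cox7a2 and Cox8a. Beyond these forms, 73 of 80 nuclear genes of oxidative phosphorylation were lower (median -1.73), as were 11 of 13 mitochondrially encoded genes (median -1.80). With total-read scaling 51 of the nuclear genes were lower and 1 higher, and 8 of the mitochondrially encoded genes were lower. Gapdh had 28.2 against 6229.9 scaled reads, but its reads are shared with many pseudogenes and its value is uncertain.

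**Figure D3:**
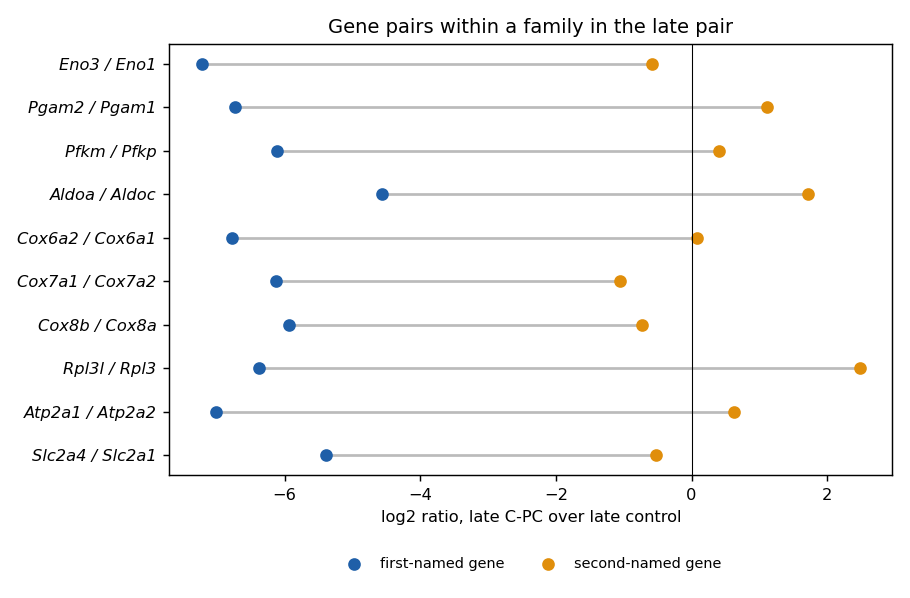
Log2 ratio of late C-PC over late control (x axis) for 10 pairs of related genes, chosen from the lists with their values known. The muscle-enriched member is named first and drawn in blue and the other in orange, and each point is 1 gene in 1 library pair. The blue points lie between -7.22 and -4.57, and the orange points between -1.05 and 2.48.

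Fat genes were lower with C-PC in 23 of 24 cases (median -2.61). Adipoq, the adipokine adiponectin, had 1129 against 7426 scaled reads (log2 ratio -2.72, -2.80 to -2.63). Lep, the satiety hormone leptin, had 674 scaled reads against 2319.8 (log2 ratio -1.78, -1.90 to -1.66). The largest ratio in size was that of Slc2a4, the insulin-regulated glucose transporter that muscle shares, at a log2 ratio of -5.38 (-5.55 to -5.24). Ucp1, the uncoupling protein of brown fat, had 0 against 63.3 scaled reads. Genes of fatty acid synthesis were mixed. Fasn, the fatty acid synthase, had a log2 ratio of -3.63 (-3.66 to -3.61) and Acaca, which makes its substrate, -2.43. Scd2, a desaturase, was within 2-fold, at a log2 ratio of -0.40, as was Elovl6, an elongase, with 2189 scaled reads against 2187, and the desaturase gene Fads2 was higher (2.40). The sterol synthesis gene Sqle, which encodes squalene epoxidase, was higher, at a log2 ratio of 2.74 (2.57 to 2.94). Of the regulator genes, Srebf1 had a log2 ratio of -1.63 and Srebf2 1.55, while Fdft1 was within 2-fold (-0.08). The joint list of 23 genes had 8 higher and 8 lower, where 27.3% and 23.4% of all genes were.

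Of 15 sebaceous gland genes 11 were higher and 2 lower. Elovl3, a fatty acid elongase of the gland, had 977 against 9.94 scaled reads, and Soat1 had 1639.6 against 134. The lower members, Pparg and Plin2, are also adipocyte genes, at log2 ratios of -1.54 and -1.91.

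Vessel genes were lower in 19 of 22 cases, and none was higher. With total-read scaling 13 were lower and 1 higher. Pecam1, a junction protein of all endothelium, had 1337 against 3299.8 scaled reads (log2 ratio -1.30, -1.39 to -1.21). Cldn5, of tight junctions, and Nos3, the nitric oxide synthase, had log2 ratios of -2.83 and -2.68, whereas Plvap, of fenestrated vessels, was within 2-fold (0.15, 0.04 to 0.25). Of 19 angiogenic genes 11 were lower (4 with total-read scaling) and 3 higher. Vegfa, the main vessel growth factor, and Vegfb had log2 ratios of -3.49 and -3.48, and Thbs1, an inhibitor of vessel growth, gave 2.39 (2.25 to 2.54). In mural cells, Abcc9 and Rgs5, pericyte markers, had log2 ratios of -4.29 and -2.51, while the smooth muscle actin Acta2 gave 0.26 (0.18 to 0.35). Lrrc15, a membrane protein of myofibroblasts, had 10706 scaled reads against 23.6, the highest ratio of its list (log2 ratio 8.71, 8.18 to 9.56). Of the 19 genes of that list, on smooth muscle, pericytes and myofibroblasts, 5 were higher and 8 lower (6 lower with total-read scaling). Over all genes compared, 27.3% were higher and 23.4% lower.

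Collagen genes lay on both sides. Of 44 genes 14 were higher and 12 lower, where 27.3% and 23.4% of all genes were, and the median was 0.17, so the list as a whole lay near the background. With total-read scaling 21 were higher and 9 lower. Among fibrillar collagens of dermis, 2 that were higher were Col1a1 at 56412 against 9115 scaled reads and Col3a1 at 75010.4 against 18357. Col17a1, which anchors basal keratinocytes, had 1703 scaled reads against 38.5. Of the collagens known from cartilage, Col11a1 was within 2-fold (log2 ratio 0.53) and Col2a1, Col9a1, Col9a2, Col9a3, Col10a1 and Col11a2 were lower, with Col2a1 at 13.7 scaled reads against 2238, Col9a2 at 1.59 against 231 and Col11a2 at 29.8 against 315. Col22a1, found where muscle meets tendon, had a log2 ratio of -4.73 (-6.48 to -4.07), and the basement membrane chains Col4a1 and Col4a2 were within 2-fold, at -0.50 and -0.58. Among proteases, Mmp3, the stromelysin, had a log2 ratio of 3.92 (3.46 to 4.58), and Mmp14, a membrane-bound collagenase, had 3681 scaled reads against 1049.5. Mmp8 and Mmp9, which neutrophils carry, had 8.04 scaled reads against 113 and 84.6 against 319.

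Immune genes differed between cell types. Granule genes of neutrophil precursors were lower, with Ltf, lactoferrin, at 1.59 against 541 scaled reads and Camp at 0.789 against 469. Erythroid genes were lower in 7 of 10 cases, with the haemoglobin gene Hbb-bs at 2044 scaled reads against 21734. Of 23 macrophage genes 12 were higher and 3 lower, and most lay close to 2-fold, such as Adgre1, which encodes the F4/80 antigen, at a log2 ratio of 1.40 (1.09 to 1.75). Arg1, the arginase, and Gpnmb stood apart, with 885 scaled reads against 3.74 and 6134 against 177. Both are also expressed outside macrophages, Gpnmb in pigment cells among others. Cd207, the langerin of Langerhans cells, had 33.8 scaled reads against 1.26. The inflammatory cytokines Il6, Tnf and Cxcl2 were below 10 reads in both late libraries, as were 11 of the 27 entries of that list in all. Of the 16 compared, 7 were higher and 1 lower (10 and 1 with total-read scaling), where 27.3% and 23.4% of all genes were. Il1a had the highest log2 ratio of the list, 4.96, Il1b gave 1.26, and the lower one was Cxcl9 (-1.74). Ccl8, a chemokine of resident macrophages, had 1083 scaled reads against 76.9. Interferon-stimulated genes were lower in 10 of 21 cases and higher in none (7 lower and 1 higher with total-read scaling). Among them Ifi27 had 553 scaled reads against 2951. Among lymphocyte genes Ighm, the heavy chain of IgM, had 497 scaled reads against 6415, and Trbc2, a T cell receptor constant gene, had 114 against 11.2. Of the 17 listed T and NK genes, 11 reached 10 reads. Of these 4 were higher and 3 lower, where 27.3% and 23.4% of all genes were. Trbc2 had the largest ratio of the list, while Nkg7 and Cd247 had log2 ratios of -2.72 and -1.47.

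Mast cell genes were closer together, with 7 of 11 genes of the mast cell and eosinophil list higher and 1 lower. The mast cell protease gene Mcpt4 was within 2-fold (log2 ratio 0.96, 0.74 to 1.19), and the eosinophil granule gene Prg2 had 0 against 52.1 scaled reads. Nerve genes lay on both sides, with 7 of 15 lower and 4 higher (5 lower and 6 higher with total-read scaling). Of all genes compared, 23.4% were lower and 27.3% higher. Mbp, a protein of myelin, had 950.4 scaled reads against 4429.9.

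Growth factor ligands differed between families. Of the ligands of the EGF receptor, Ereg, Areg and Tgfa were higher, with Ereg and Areg at 329.7 and 223 against 0 and 0 scaled reads, Tgfa at 2235 against 33.5, and the receptor gene Egfr at a log2 ratio of 2.89 (2.73 to 3.06). Egf itself was lower, with 33.8 scaled reads against 827 (log2 ratio -4.53, -5.10 to -4.16), and Hbegf was within 2-fold (-0.49). Of the TGF-beta superfamily, Bmp7, Bmp2 and Bmp4 had log2 ratios of 4.85, 2.67 and 1.96, whereas Tgfb2 and Tgfb3 gave -2.46 and -1.77 and Tgfb1 lay within 2-fold (0.40). The family as a whole had 9 of 26 members higher and 7 lower (4 lower with total-read scaling). Over all genes compared, 27.3% were higher and 23.4% lower.

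Antioxidant and early response genes were mixed. Of 21 Nrf2 target and antioxidant genes, 8 were higher and 8 lower (5 lower with total-read scaling), where 27.3% and 23.4% of all genes were. Slc7a11, which imports cystine, had 576 against 2.50 scaled reads, and Gclc and Hmox1 had log2 ratios of 1.99 (1.83 to 2.18) and 1.55 (1.36 to 1.74). The mitochondrial superoxide dismutase gene Sod2 and the glutathione transferase gene Gstm1 were lower, with Sod2 at a log2 ratio of -2.06 and Gstm1 at -2.43. Of 18 immediate early genes 10 were higher, led by Egr3 with 3993 scaled reads against 89.3 (log2 ratio 5.45, 5.15 to 5.84). Nr4a1 was lower, with 169 scaled reads against 3522 (log2 ratio -4.36, -4.59 to -4.18), and Fos was near 2-fold (0.97, 0.70 to 1.27).

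Hox genes, which specify position along the body and limbs, differed between their clusters. Of 8 compared Hoxb genes 6 were higher and none lower with C-PC, and their median was 2.15. Hoxb8 had 321 against 34.8 scaled reads (log2 ratio 3.13, 2.65 to 3.82) and Hoxb6 had 262 against 26.1. Of 8 Hoxc genes 7 were lower, and the exception was the hair factor Hoxc13. Hoxc10, expressed in posterior body and hindlimb, had 54.0 scaled reads against 1353 (log2 ratio -4.60, -5.03 to -4.29). The Hoxa and Hoxd clusters had 5 of 8 and 3 of 4 genes lower, with Hoxd9 at 126 scaled reads against 744. Hoxc10 overlaps Hoxc5 and Hoxb6 overlaps an antisense gene in the table, and without strand their reads cannot be fully separated. Muscle genes took 0.413% of reads with C-PC and 20.5% in the late control, as given above, and their part in the Hox ratios was not tested.

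**Figure D4:**
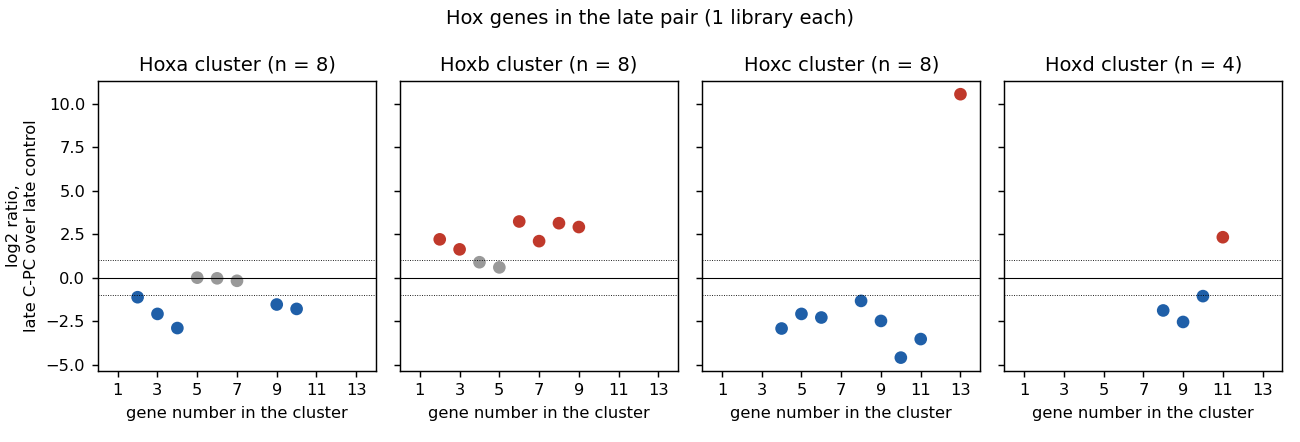
Log2 ratio of late C-PC over late control (y axis) for each compared Hox gene against its number in the cluster (x axis), 1 panel per cluster and 1 point per gene; dotted lines mark 2-fold. Points of the Hoxb cluster lie above 0, and those of the other clusters lie at 0.00 or lower except Hoxc13 at 10.55 and Hoxd11 at 2.33.

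Circadian and imprinted genes were also read. Of 18 clock genes 9 were lower and 2 higher (7 and 2 with total-read scaling), where 23.4% and 27.3% of all genes were. Lower ones included the output gene Dbp at 129.8 against 803 scaled reads, Tef at a log2 ratio of -2.63 (-2.74 to -2.52) and the repressor gene Nr1d1 at 351 against 5384, although Nr1d1 overlaps Thra. The core genes Per1, Per2 and Cry1 were within 2-fold, at log2 ratios of 0.26, 0.45 and 0.23, while Clock was lower (-1.29). Hlf, of the same family as Dbp and Tef, was within 2-fold (log2 ratio -0.12), and Ciart and Nfil3 were higher, at log2 ratios of 3.20 and 1.27. The time of day at sampling is not stated in the labels. Of 12 imprinted genes 6 were lower and none higher (4 lower and 1 higher with total-read scaling). The growth-related RNA H19 had 1154 scaled reads against 6827, while Peg3 was within 2-fold, with 939 against 984.

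The transcription factor families annotated in the table gave another view of all genes. Of 1075 genes with a family, 25.4% were higher and 20.9% lower, close to the share over all genes. In the family named ESR-like, of nuclear receptors, 7 of 8 were lower and 1 higher, and in the THR-like family 10 of 15 were lower and 2 higher. In the MYB family 9 of 23 were higher and none lower. The homeobox family had 35 of 96 higher and 32 lower, so its members lay on both sides.

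Among the 6 libraries, the late C-PC library had the highest level of the follicle genes. Tchh stood at 18637 CPM in it and at 0.0618 CPM in the late control. In the middle pair it was 0.349 CPM with C-PC and 23.5 CPM without, and in the early pair 1.31 CPM with C-PC and 0.333 CPM without. The hair keratins summed to 13212 CPM with C-PC and 0.680 CPM in the control at the late stage, 0.0582 CPM with C-PC and 8.83 CPM in the control at the middle stage, and 1.07 CPM with C-PC and 2.05 CPM in the control at the early stage. Cell division genes summed to 2246 CPM with late C-PC and 133 CPM without it, against 2092 CPM with C-PC and 2157 CPM in the control of the early pair. The fast muscle list summed to 1361 CPM with C-PC and 122182 CPM in the late control, and to 124977 CPM with C-PC and 7682 CPM in the control of the middle pair. Differences between the pairs were not tested, since each has 1 library per group.

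**Figure D5:**
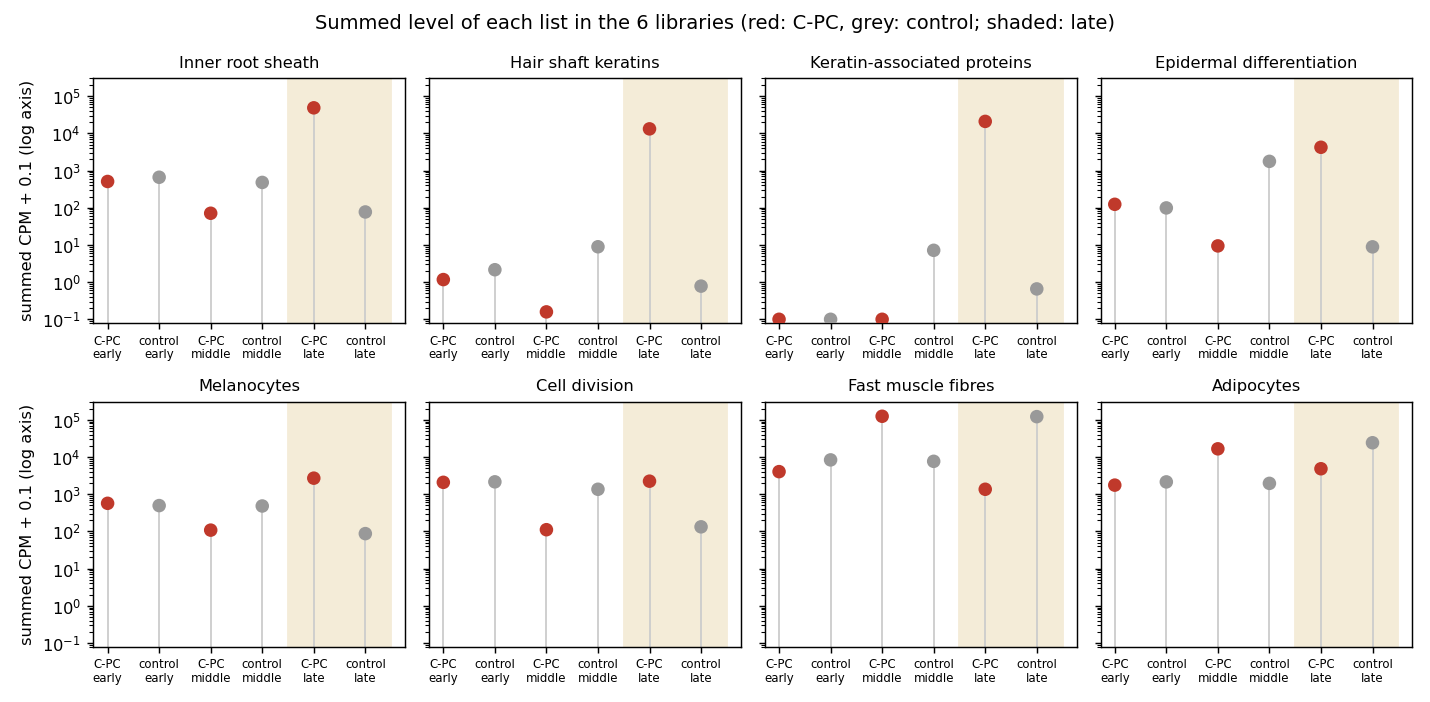
Summed CPM (plus 0.1, log axis) of 8 gene lists in the 6 libraries (x axis), with C-PC in red and control in grey and the late pair shaded; each point is 1 library. Hair keratins reach 13212 CPM in the late C-PC library and no more than 8.83 CPM in any other, and the fast muscle list peaks at 124977 CPM for middle C-PC and 122182 CPM for the late control.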

How the data were processed

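RNA of mouse skin was sequenced in 6 libraries, 1 for each of C-PC and no treatment at 3 stages. The libraries were made with the NEBNext Ultra RNA kit, per the labels' protocols, which does not mark strand. The values deposited by the authors are a signal per gene, read counts multiplied by 1 factor per library. In the late pair these factors leave the 2 libraries with unequal totals. Each value is a whole multiple of 1 read within 0.1 read, for 100% of values, so the reads were recovered by division. A count of 0 reads is written as 1.39e-17, and the smallest sum of reads over a pair is 2. The authors' deposited log2 fold changes and p-values were not used. The submitters' processing notes name the human build hg38, whereas the identifiers and coordinates are those of mouse: of 22702 genes in the late table, 22692 have an identifier in GENCODE M21 (GRCm38) and 96.8% have the same start and end there. The aligner is not given in the sources used here.

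Log2 ratios of C-PC over control were taken after adding 2 to each scaled value, for the 17073 genes with at least 10 reads in 1 late library. With 1 library per group no count test was run, and the interval (95%, exact conditional binomial) covers counting error only. The reads of the 2 late libraries number 17033889 with C-PC and 16187258 in the control. Both steps were tested on simulated data. The late comparison, its gene lists and the genes named were chosen with earlier results of these data known. Genes were named as members of those lists (every member of a short list could be named, and of longer ones the largest ratios, the highest levels and members against their list), and others for their role, with their values seen. Alternatives were 2 other scalings, 2 other additions, 2 other read minimums and 2 other calls. Promoters came from RefSeq (GRCm38.p6). Python 3.11.15, numpy 2.4.6, pandas 2.3.3, scipy 1.17.1 and matplotlib 3.10.9 were used.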

Additional observations from a re-analysis of the deposited data

Results flagged for a closer look

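The middle and the late stage were set side by side for 53 lists, and in 26 of them the median log2 ratio of C-PC over control was at least 1 in size in both pairs and opposite in sign. Each pair has 1 library per group, so the difference between the stages was not tested. The count takes the authors' scaling, and some lists share genes, such as Krt17, so the 26 are not separate observations. In what follows the late median stands first and the middle median second. Among hair follicle lists these were inner root sheath 12.18 and -2.98, hair shaft keratins 12.21 and -2.81, keratin-associated proteins 10.24 and -2.77, hair follicle transcription factors 6.93 and -2.90 and outer root sheath and companion layer 3.48 and -2.90. Among epidermal lists they were basal keratinocytes 5.04 and -4.44, epidermal differentiation 6.91 and -6.54, barrier lipids 4.33 and -4.28, desmosomes 9.35 and -6.44 and wound-edge keratinocytes 1.25 and -5.46. The remaining lists that were higher at the late and lower at the middle stage were melanocytes 7.72 and -1.25, sebaceous gland 3.42 and -2.06, cell division 4.18 and -3.40, macrophages 1.00 and -3.51, mast cells and eosinophils 1.06 and -2.94 and immediate early genes 1.14 and -1.90.

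The muscle lists ran the other way, with fast muscle fibres -7.10 and 4.59, slow muscle fibres -3.40 and 1.29, sarcomere and muscle membrane -5.75 and 3.97 and developing and regenerating muscle -2.53 and 3.21. So did adipocytes -2.61 and 4.32, glycolysis -3.29 and 2.76, nuclear oxidative phosphorylation -1.73 and 2.32, mitochondrially encoded -1.80 and 2.13, replication-dependent histones -1.64 and 2.23 and Hox genes -1.09 and 1.05. With total-read scaling the late Hox median was -0.59, short of the limit of 1. Late medians of lists with many control reads of 0 depend on the addition of 2. With 3 reads in place of 0 they were 10.66 for inner root sheath, 11.34 for hair shaft keratins and 8.73 for keratin-associated proteins. For epidermal differentiation and melanocytes they were 5.70 and 6.26. Few hair shaft and keratin-associated genes reached 10 reads in the middle pair, 5 and 2, so those middle medians rest on few genes. Summed levels moved with these medians: the fast muscle list stood at 124977 CPM with C-PC and 7682 CPM in the control at the middle stage, and at 1361 CPM with C-PC and 122182 CPM in the control at the late stage. The part of tissue make-up in these values was not tested.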

How the results depend on the processing

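With the authors' scaling 4653 genes were at least 2-fold higher and 4003 lower with C-PC. Of 1124 genes followed singly, 709 left their counting interval with total-read scaling and 3 with scaling by the median of gene ratios. With an addition of 10 in place of 2, 233 left it, and with 0.5, 0 did. No gene past 2-fold could change sign, since an addition keeps the sign and both scalings move ratios by less than 2-fold. With total-read scaling 6997 genes were higher and 2714 lower, since it moves the median ratio by 0.54 on the log2 scale, and the medians of 4 lists then changed sign: Nrf2 targets (0.17 against -0.38 as reported), growth factors of repair (0.34 against -0.19), Schwann cells and nerve (0.43 against -0.11) and smooth muscle, pericytes and myofibroblasts (0.04 against -0.47). A limit of 4-fold in place of 2-fold left 2516 genes higher and 1875 lower, with 8 ribosomal protein genes higher and 25 nuclear genes of oxidative phosphorylation lower, and it moved the count of 23 of 52 lists by more than 1.5 times. The other 6 alternatives gave 3562 to 6077 higher and 3094 to 5519 lower genes, with as many genes compared as each filter leaves. No paired analysis was possible because each group has 1 library, and for the same reason no library could be left out. A gene with few reads in both libraries carries a wide interval, and differences within it were not detectable at this depth.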
